A study of Mus musculus with 4 samples.

Results

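The expression programme of fat regulatory T cells in wild-type (WT) mice was described from 2 RNA sequencing libraries. The first held Treg cells sorted from the epididymal fat pad, a visceral white adipose depot (eWAT), and the second held Treg cells sorted from spleen. Of the 23284 gene symbols in the count tables, 8313 reached 20 CPM (read counts scaled to a common library size, with totals adjusted by TMM) in at least 1 of these 2 libraries, and the account below is about those kept genes. Both libraries are labelled C57BL/6, WT and 12 to 13 months of age, and the labels name no treatment. A second pair of libraries, from eWAT and spleen Treg cells of mice of the same strain and age that carried the PPARg-2KR form of the nuclear receptor PPARG (2KR), was set beside the WT pair. The 2 pairs share no library. Since the genotype differs, the 2KR pair is not a replicate of the WT pair. How many animals went into a library, and which surface markers defined the sort, is not given in the sources used here.

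Treg cells are CD4 T cells that depend on the transcription factor FOXP3 and restrain other immune cells. In visceral fat they are known to use PPARG as a lineage factor, to respond to interleukin 33 through its receptor ST2 (encoded by Il1rl1), to make the growth factor amphiregulin (Areg), and to carry the lectin receptor KLRG1 and the chemokine receptor CCR2. Many Treg cells of the spleen are resting cells that recirculate through lymphoid organs, where CCR7 guides them and the transcription factors TCF1 (Tcf7) and LEF1 mark the resting state.

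The WT spleen and WT eWAT libraries held 13250590 and 11186660 counted reads, and the 2KR spleen and 2KR eWAT libraries 15993889 and 8315569. With 1 library a side there is no replicate error and no p-value for any gene. Ratios are given as log2 of WT eWAT over WT spleen, with a prior count of 2 added to each library, and a gene was called higher or lower at a 2-fold difference or more. Intervals of 95% cover counting error only. One measure of spread between libraries of the same tissue is the ratio of 2KR spleen to WT spleen. Over the 6787 genes at 20 CPM or more in both WT libraries, that log2 ratio had an SD of 0.22, against 0.73 for the WT tissue ratio, and 7 of those genes differed 2-fold or more between the spleen libraries. The 2 spleen libraries were therefore much closer to each other than the 2 WT tissues were, although they differ in genotype. The same spread between the 2 eWAT libraries was not computed, and several genes named below differed between them. The spleen SD therefore does not describe the spread of eWAT libraries.

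Both WT libraries carried the genes that define Treg cells. Foxp3 was at 1407 CPM in WT spleen and 1160 CPM in WT eWAT, a log2 ratio of -0.28 (interval -0.31 to -0.25). Il2ra, the high-affinity chain of the interleukin 2 receptor, stood at 1023 and 1007 CPM. Ikzf2, which encodes the Treg factor Helios, stood at 264 and 251 CPM. These 3 genes lay within 1.21-fold between the tissues. Of the 25 Treg core genes, all of them kept, 3 (12%) were higher in WT eWAT, 6 (24%) were lower and 16 lay between. Over all kept genes 9.02% were higher and 13.7% lower. The median log2 ratio of the core genes was -0.07, against -0.33 over all kept genes.

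The markers of fat Treg cells were far higher in WT eWAT. Pparg was counted at 5.73 CPM in WT spleen (71 reads) and 129 CPM in WT eWAT (1403 reads), and at 2.88 and 64.1 CPM in the 2KR spleen and eWAT libraries. Il1rl1 went from 16.5 CPM in WT spleen to 1428 CPM in WT eWAT, and from 27.0 to 278 CPM in the 2KR pair. Areg went from 11.8 to 2068 CPM in the WT pair and from 10.7 to 387 CPM in the 2KR pair. For each of these 3 genes both eWAT libraries lay above both spleen libraries, and WT eWAT was the highest of the 4. Klrg1 stood at 97.8 CPM in WT spleen and 1983 CPM in WT eWAT, and at 127 and 728 CPM in the 2KR pair. Ccr2 stood at 24.4 and 1586 CPM in the WT pair, and at 31.8 and 674 CPM in the 2KR pair. In log2 terms the WT ratio was 4.46 for Pparg (interval 4.15 to 4.86), 6.43 for Il1rl1, 7.44 for Areg, 4.34 for Klrg1 and 6.02 for Ccr2. All 5 markers of fat Treg cells were thus higher in the library labelled WT eWAT, by between 20.3-fold and 176-fold.

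Pparg is transcribed from alternative starts that give the transcripts known as Pparg1 (upstream start) and Pparg2 (downstream start). In the deposited mm9 coordinates the upstream transcript spans chr6:115311239-115440419 and the downstream one chr6:115372084-115440419. The upstream transcript was estimated at 70.1 FPKM in WT eWAT (the authors' interval 66.3 to 74.0) and at 1.4e-05 FPKM in WT spleen. The downstream transcript was estimated at 0.973 FPKM in WT eWAT and 3.04 FPKM in WT spleen. In WT eWAT the upstream transcript thus made up 98.6% of Pparg FPKM. In 2KR eWAT the split was different, with 16.3 FPKM for the upstream and 26.1 FPKM for the downstream transcript. The spleen estimates rest on 71 and 44 reads for the whole gene, so their split between transcripts is uncertain. RefSeq (GRCm38.p6) lists 3 Pparg starts, and its first and last starts are 60922 bases apart, against 60845 bases between the starts in the deposited mm9 coordinates. The 250 bases before those 2 outer RefSeq starts are shown because the 2 transcripts differ there. They are at chr6:115360894-115361143 and chr6:115421816-115422065 of GRCm38.p6 on the plus strand, all in lower case, with 82.4% and 40.8% G or C.
Pparg upstream start: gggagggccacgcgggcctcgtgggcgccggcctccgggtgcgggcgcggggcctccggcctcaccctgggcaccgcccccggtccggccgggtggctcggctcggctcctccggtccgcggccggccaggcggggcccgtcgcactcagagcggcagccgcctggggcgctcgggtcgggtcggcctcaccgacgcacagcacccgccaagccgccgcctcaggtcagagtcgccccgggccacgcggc
Pparg downstream start: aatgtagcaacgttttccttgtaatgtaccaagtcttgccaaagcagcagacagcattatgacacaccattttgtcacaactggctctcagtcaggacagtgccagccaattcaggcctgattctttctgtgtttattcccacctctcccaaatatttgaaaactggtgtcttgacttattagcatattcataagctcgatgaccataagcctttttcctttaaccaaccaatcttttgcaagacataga

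Il1rl1 also has 2 deposited transcripts, a long one of 5071 bases that encodes the membrane receptor ST2 and a short one of 3002 bases that encodes a soluble form. The long transcript was estimated at 2.51 FPKM in WT spleen and 251 FPKM in WT eWAT. The short transcript was estimated at 0.412 and 36.1 FPKM. The long form held 85.9% of Il1rl1 FPKM in WT spleen and 87.4% in WT eWAT, so both forms were higher in fat and their split was nearly the same.

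Across all 8313 kept genes, 750 (9.02%) were at least 2-fold higher in WT eWAT and 1138 (13.7%) were at least 2-fold lower. The remaining 6425 lay between. The median log2 ratio was -0.33 with an SD over genes of 1.24. Large differences were mostly in the upward direction: 414 genes were 4-fold higher and 155 were 4-fold lower, and at 16-fold the counts were 170 and 12. Many of the higher genes were scarce in spleen, with 396 of the 750 at 1 to 20 CPM there, 71 under 1 CPM and 8 of those at 0 reads. Among the 6787 genes at 20 CPM or more in both libraries, 283 (4.17%) were higher and 659 (9.71%) lower. A requirement of expression in both tissues thus left 283 of the 750 higher genes and 659 of the 1138 lower ones.

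**Figure D1:**
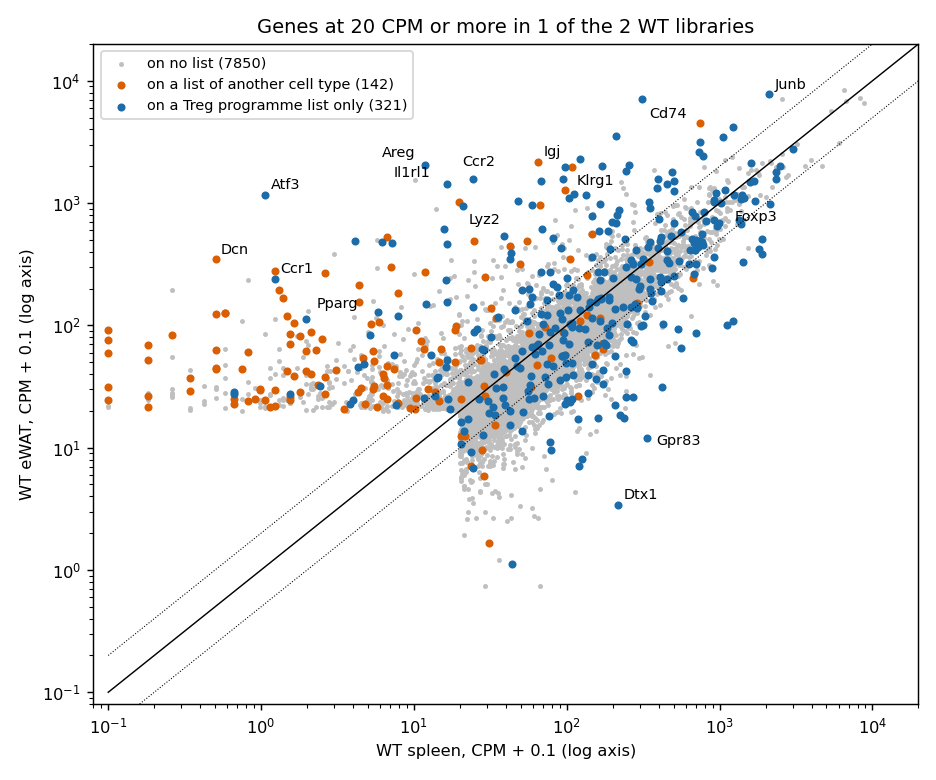
Level of each of the 8313 kept genes in WT spleen (x axis) and WT eWAT (y axis), in TMM-scaled CPM plus 0.1 on log axes, with 1 library per axis. The solid line is equality and the dotted lines are 2-fold; Areg, Il1rl1 and Ccr2 sit far above the upper line, Foxp3 sits near equality, and Dtx1 and Gpr83 sit far below.

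Genes of other cell types were set apart first, because Treg cells are sorted out of a tissue that holds many of them. Of the 750 higher genes, 110 stood on a list of markers of other cells, 97 on a Treg programme list only and 543 on no list. Among the 170 genes at 16-fold or more, 61 were markers of other cells, and of the 71 genes under 1 CPM in spleen 28 were. Among the 283 higher genes at 20 CPM or more in both tissues, 15 were. The largest ratios therefore held a larger share of other-cell markers than the ratios of genes expressed in both tissues. The 71 genes under 1 CPM in spleen were kept only through the fat library, so their being higher was set by that filter.

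Antigen-presenting cell genes held the most reads of these lists. The 39 genes of dendritic cells and MHC class II summed to 1788 CPM in WT spleen and 11344 CPM in WT eWAT. Of the 24 kept members 18 (75%) were higher, against 9.02% of all kept genes. Cd74, the invariant chain of MHC class II, stood at 741 and 4501 CPM, and H2-Ab1, a class II chain, at 108 and 1988 CPM. Cd209a, a lectin of dendritic cells, stood at 1.13 and 277 CPM. The 88 macrophage and monocyte genes found in the files summed to 1675 and 5797 CPM, and 37 of 45 kept members were higher, with a median log2 ratio of 2.67. Lyz2, lysozyme of macrophages, stood at 19.8 and 1015 CPM. Csf1r, the receptor that macrophages depend on, differed less, at 27.5 and 52.4 CPM. In the 2KR pair the class II list summed to 1310 and 19140 CPM and the macrophage list to 1336 and 6969 CPM, so 2KR eWAT held more of both than WT eWAT.

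Nearly all kept stromal genes were higher in WT eWAT, against 9.02% of all kept genes. Of 23 kept fibroblast and mesothelium genes 22 were higher, with a median log2 ratio of 4.92, and their list of 70 summed to 396 and 2386 CPM. Dcn, the matrix proteoglycan decorin, had 5 reads in WT spleen and 348 CPM in WT eWAT. Sparc, a matrix protein, had 0 reads in WT spleen and 91.9 CPM in WT eWAT, at least 379.9-fold higher against a floor of 3 reads. Of 14 kept endothelium and pericyte genes 13 were higher, with a median of 5.23. The 31 genes summed for that list went from 220 to 1084 CPM, of which Ctla2a alone held 24.4 and 491 CPM. In the 2KR pair Ctla2a stood at 24.8 and 126 CPM. Cav1, the caveolar coat protein, had 0 reads in WT spleen and 59.3 CPM in WT eWAT, at least 245-fold higher. Pecam1, an endothelial gene that is also expressed by some T cells, was instead lower in eWAT, at 172 and 63.4 CPM. Several genes of these lists had no read in the spleen library. Genes with so few spleen reads were kept only through the fat library, so their being higher was set by that filter. Over the listed genes found, kept or not, medians were 3.96 for fibroblast and mesothelium and 3.99 for endothelium and pericyte.

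Lymphoid, granulocyte and fat cell lists gave a mixed picture. The 26 B cell genes summed to 451 CPM in WT spleen and 454 CPM in WT eWAT. The 10 plasma cell genes summed to 612 and 2924 CPM, of which Igj, the joining chain of secreted antibodies, accounted for 65.1 and 2184 CPM. CD8 T, NK and ILC1 genes summed to 267 and 398 CPM, with Cd8a at 0.645 and 3.51 CPM. The ILC2 and mast cell genes that are on no Treg list summed to 117 and 308 CPM. Nmur1, a neuropeptide receptor of group 2 innate lymphoid cells, stood at 0.887 and 30.1 CPM. Neutrophil and eosinophil genes summed to 15.2 and 325 CPM, of which the protease gene Mmp9 held 7.02 and 299 CPM. Adipocyte genes summed to 126 and 142 CPM, and Adipoq, the adiponectin gene and a defining marker of fat cells, had 3 reads in WT spleen and 0 reads in WT eWAT. Erythroid and platelet genes summed to 17.5 and 14.03 CPM. The 4 globin symbols listed had 0 reads in both WT libraries, but Beta-s, a beta-globin symbol outside the list, had 20.1 counted RPM (CPM without TMM scaling) in WT eWAT, so these zeros do not show that globin RNA was absent. By members, 5 of 10 kept B cell genes were higher and 2 lower, and 3 of 6 kept adipocyte genes were higher and 1 lower. Over all kept genes 9.02% were higher and 13.7% lower. The adipocyte sum leaves out 8 genes that are also on a Treg list, Fabp4 among them. Of 6 kept CD8 T, NK and ILC1 genes 2 were higher and 1 lower, with a median log2 ratio of -0.13. In such bulk libraries fewer cells of a type and less RNA per cell cannot be told apart. The part of these other cells in the ratios of the Treg lists below was not tested.

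**Figure D2:**
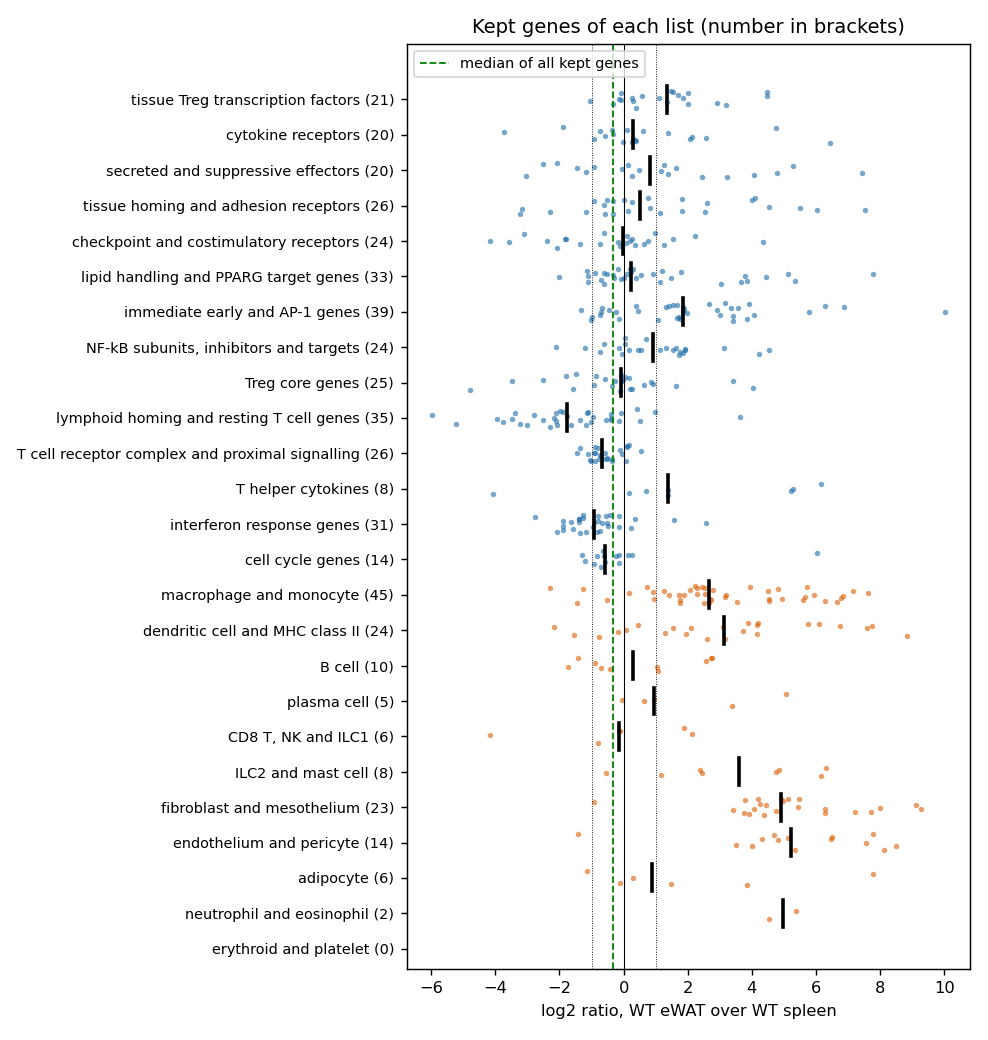
Log2 ratio of WT eWAT over WT spleen (x axis) for each kept gene (a point) of the 14 Treg programme lists (blue) and the 11 lists of other cell types (orange), with the list median as a black bar. The dashed line is the median of all kept genes, -0.33, and the dotted lines mark 2-fold; the immediate early list has a median of 1.85, the resting list -1.78, and the fibroblast and endothelium lists lie near 5.

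Transcription factors of tissue Treg cells were mostly higher in fat. Of 23 listed, 21 were kept, 12 (57.1%) were higher and 1 was lower, against 9.02% and 13.7% of all kept genes. The Treg lists, here and below, were chosen with earlier results of these data known, so their shares may partly depend on that choice. Their median log2 ratio was 1.34. Crem, a factor of the cyclic AMP response, stood at 67.4 CPM in WT spleen and 1507 CPM in WT eWAT, and at 58.7 and 1099 CPM in the 2KR pair. Rora, the nuclear receptor known from type 2 lymphoid cells, stood at 42.8 and 391 CPM in the WT pair and at 50.7 and 203 CPM in the 2KR pair. Gata3, the factor of type 2 T cells and tissue Treg cells, stood at 209 and 682 CPM in the WT pair, but at 224 and 286 CPM in the 2KR pair. Crem was close to level between the eWAT libraries, whereas Rora and Gata3 were highest in WT eWAT. Id2, Nfil3 and Bhlhe40 had log2 ratios of 2.00, 2.01 and 1.86. Irf4 and Prdm1, which encode effector Treg factors, had ratios of 1.54 and 1.10. Zeb2 had a ratio of 2.92, from 7.34 to 56.7 CPM, and a larger ratio of 4.79 in the 2KR pair. Tbx21 (T-bet) and Maf were near level, at 0.28 and -0.15. Batf, an AP-1 family factor of effector Treg cells, was the 1 lower member, at 287 and 139 CPM (log2 ratio -1.04), and with total count scaling it was -0.99.

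Secreted and suppressive effectors were split. Of 27 listed, 20 were kept, 10 (50%) were higher and 5 (25%) lower, against 9.02% and 13.7% of all kept genes. Their median log2 ratio was 0.82. Il10, the anti-inflammatory cytokine, stood at 16.5 CPM in WT spleen and 460.3 CPM in WT eWAT, and at 13.6 and 204 CPM in the 2KR pair. Fgl2, a secreted suppressive protein, stood at 93.7 and 1581 CPM in the WT pair and at 70.4 and 785 CPM in the 2KR pair. Lgals3, galectin 3, stood at 15.7 and 612 CPM, and its relative Lgals1 at 146 and 788 CPM. For these 4 genes both eWAT libraries again lay above both spleen libraries. Ctla4, the inhibitory receptor that removes CD80 and CD86 from other cells, stood at 774 and 2419 CPM. Gzmb (granzyme B) stood at 16.5 and 155 CPM in the WT pair and at 11.7 and 268 CPM in the 2KR pair. Tgfb1 and Ebi3 were near level, with ratios of 0.27 and -0.04. The other direction was seen for the 5 lower genes, of which 3 are given here. Nt5e, the CD73 enzyme that makes adenosine, stood at 531 CPM in WT spleen and 93.7 CPM in WT eWAT. Penk, which encodes enkephalin, stood at 427 and 102 CPM. Lag3, an inhibitory receptor for MHC class II, stood at 78.3 and 9.41 CPM, a log2 ratio of -3.03. The WT eWAT library thus held more Il10, Fgl2 and Areg RNA and less Nt5e, Penk and Lag3 RNA than the WT spleen library.

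Of 23 cytokine receptors 20 were kept, 6 (30.0%) were higher, 2 lower and 12 lay between, against 9.02% higher and 13.7% lower over all kept genes, with a median log2 ratio of 0.29. After Il1rl1 the largest ratio was that of Il9r, the interleukin 9 receptor, at 2.18 and 63.1 CPM. Il9r is also on the ILC2 and mast cell list. Il10ra, a chain of the interleukin 10 receptor, stood at 165 and 977 CPM, and Ifngr1, the interferon gamma receptor, at 747 and 3141 CPM. Il7r stood at 349 and 917 CPM. Il1rap, the coreceptor that ST2 needs, was at 22.6 and 34.5 CPM, a log2 ratio of 0.61, far under that of Il1rl1. Il1r2, the decoy receptor for interleukin 1, was the lowest member, at 417 CPM in WT spleen and 31.0 CPM in WT eWAT, and at 224 and 42.8 CPM in the 2KR pair. Il6ra stood at 207 and 56.1 CPM. Both were lower in both eWAT libraries than in either spleen library.

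Receptors of homing and adhesion went in both directions. Of 30 listed, 26 were kept, 11 (42.3%) were higher, 4 (15.4%) lower and 11 lay between, against 9.02% higher and 13.7% lower over all kept genes, with a median log2 ratio of 0.51. Ccr1, a receptor for inflammatory chemokines, had 14 reads in WT spleen (1.13 CPM) and 241 CPM in WT eWAT, and 0.655 and 34.4 CPM in the 2KR pair. Cxcr6, the CXCL16 receptor of tissue-resident T cells, stood at 20.7 and 953 CPM in the WT pair and at 22.7 and 166 CPM in the 2KR pair. Ccr3 stood at 7.82 and 186 CPM. It is also an eosinophil marker and is on that list. Itgb3, an integrin beta chain, stood at 24.3 and 141 CPM in the WT pair, but at 33.9 and 40.4 CPM in the 2KR pair. Cd44, the hyaluronan receptor of activated T cells, stood at 197 and 701 CPM. Ccr8, a receptor of tissue Treg cells, was level, at 155 CPM in each WT library. Itgae, which encodes CD103 and binds E-cadherin on epithelium, stood at 208 CPM in WT spleen and 22.2 CPM in WT eWAT. Ptger2, a prostaglandin E2 receptor, stood at 160.4 and 17.5 CPM. Ccr6 had a log2 ratio of -2.28 and Cxcr3 of -0.59.

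Checkpoint and costimulatory receptors had a median log2 ratio of -0.02, against -0.33 over all kept genes. Of 25 listed, 24 were kept, 4 (16.7%) were higher and 8 (33.3%) lower, against 9.02% and 13.7% of all kept genes. Beside Klrg1 the higher members were Cd200r1 (91.4 and 427 CPM), Cd80 (7.58 and 22.2 CPM) and Tnfsf11 (85.6 and 205 CPM). The Treg receptors Icos, Tnfrsf18 (GITR) and Tnfrsf4 (OX40) were near level, with log2 ratios of 0.28, 0.20 and -0.11. Cd160 was the lowest, from 30.8 to 1.57 CPM, and its log2 ratio was -4.16 (interval -5.09 to -3.60). Cd200 stood at 222 and 18.4 CPM, so the ligand was lower in fat while its receptor gene Cd200r1 was higher. Cd96, Btla and Cd27 had ratios of -3.10, -2.39 and -1.36.

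**Figure D3:**
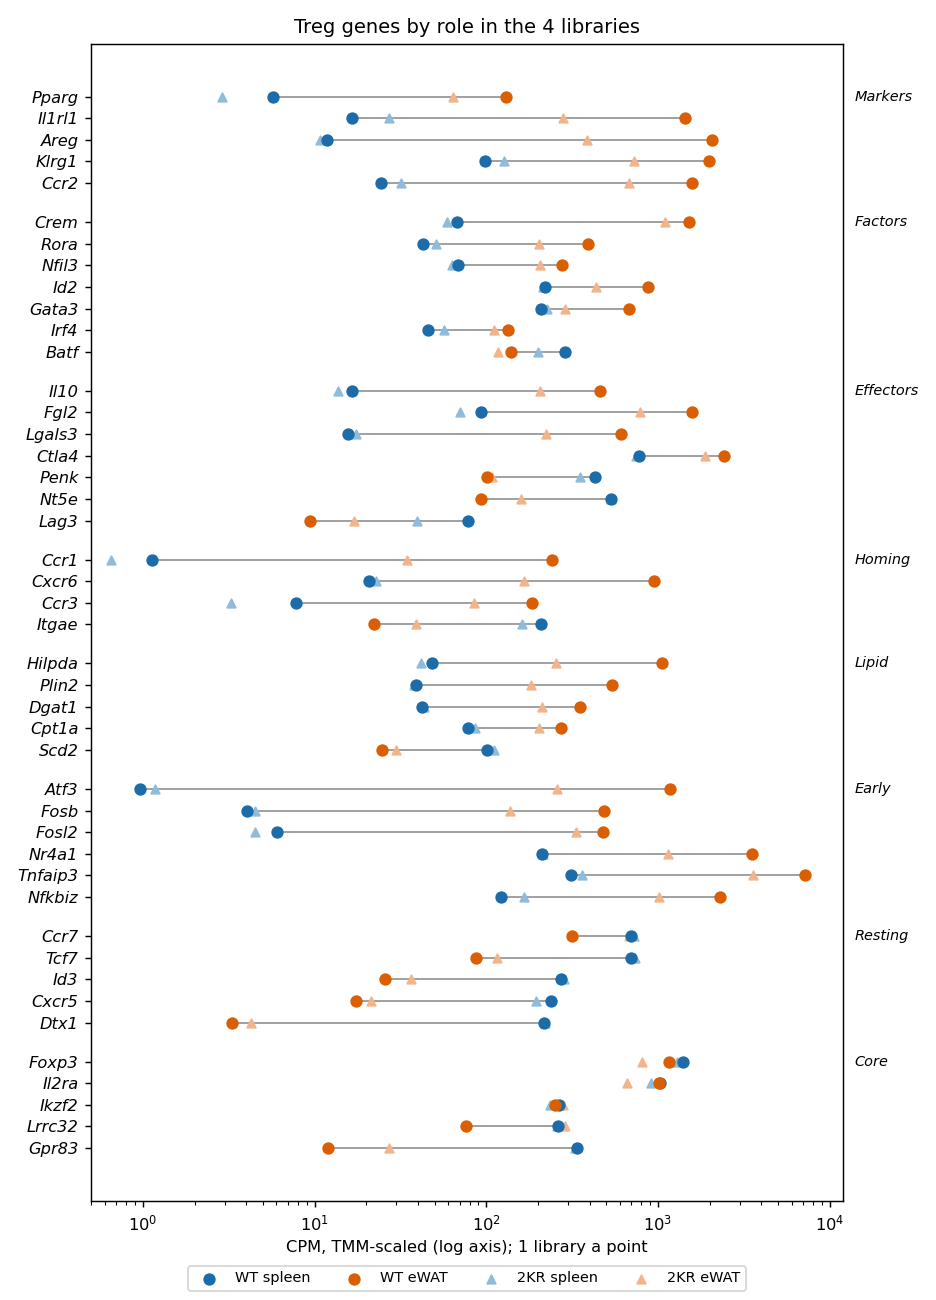
CPM (x axis, log scale) of genes named for their role in Treg cells (y axis) in the 4 libraries, WT as circles and 2KR as triangles, with 1 library a point and the WT pair joined by a line. For the markers the eWAT points lie right of the spleen points, for example 1428 against 16.5 CPM for Il1rl1, and for the resting genes the WT eWAT points lie left, for example 3.32 against 217 CPM for Dtx1.

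Genes of lipid handling and known PPARG targets were partly higher in WT eWAT. Of 47 listed, 33 were kept, 12 (36.4%) were higher, 4 (12.1%) lower and 17 lay between, against 9.02% higher and 13.7% lower over all kept genes. Their median log2 ratio was 0.24, against -0.33 over all kept genes. Hilpda, a droplet protein that inhibits lipolysis, stood at 48.2 CPM in WT spleen and 1048 CPM in WT eWAT, and at 41.5 and 255 CPM in the 2KR pair. Plin2, the droplet coat protein, stood at 38.7 and 539 CPM in the WT pair and at 37.8 and 182 CPM in the 2KR pair. Dgat1, the last enzyme of triglyceride synthesis, stood at 42.4 and 349.6 CPM, and at 43.6 and 210.0 CPM in the 2KR pair. For these 3 genes the spleen libraries were nearly equal and WT eWAT was the highest of the 4. Cpt1a, which carries fatty acids into mitochondria for oxidation, stood at 77.8 and 272 CPM. The enzymes that follow it were near level, with log2 ratios of 0.12 for Acadl, 0.00 for Acadvl, 0.24 for Acadm and -0.62 for Hadha. Scd2, a desaturase, was the lowest, at 101 and 24.6 CPM.

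The 3 largest ratios among the lipid genes belonged to genes that are also markers of endothelium or adipocytes. Fabp4, a fatty acid carrier, had 5 reads in WT spleen and 124 CPM in WT eWAT. Cd36, the fatty acid translocase, stood at 4.28 and 154 CPM, and Pltp, a phospholipid transfer protein, at 2.02 and 88.1 CPM. Their log2 ratios were 7.77, 5.12 and 5.34, and the endothelium list that includes them had a median of 5.23. In the 2KR pair the ratios of Cd36 and Pltp were larger, 6.45 and 8.05, that of Fabp4 was smaller, 6.89, and the endothelium median was 6.34. Hilpda, Plin2 and Dgat1 are on no list of other cells and had ratios of 4.44, 3.79 and 3.04 in the WT pair and 2.62, 2.26 and 2.26 in the 2KR pair. The part of endothelium and fat cells in the first 3 genes was not tested.

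Immediate early genes, which stimulated cells transcribe within minutes, made up the list with the highest median among the Treg lists. Of 42 listed, 39 were kept, 28 (71.8%) were higher and 2 (5.13%) lower, against 9.02% and 13.7% of all kept genes. Their median log2 ratio was 1.85. Atf3, a stress-induced factor of the CREB and AP-1 families, had 12 reads in WT spleen (0.968 CPM) and 1174 CPM in WT eWAT, and 1.18 and 257 CPM in the 2KR pair. Its log2 ratio of 10.02 (interval 9.44 to 11.20) was the largest of any gene on the Treg lists. Fosb stood at 4.03 and 488 CPM in the WT pair and at 4.52 and 137 CPM in the 2KR pair. Fosl2 stood at 6.05 and 480.0 CPM in the WT pair and at 4.52 and 332 CPM in the 2KR pair. These 3 genes were at 6.05 CPM or less in both spleen libraries. Nr4a1, the nuclear receptor induced by antigen receptor signals, stood at 211 and 3518 CPM in the WT pair and at 213 and 1145 CPM in the 2KR pair. Cd69, an early activation receptor that retains T cells in tissue, stood at 256 and 2041 CPM in the WT pair and at 292 and 501 CPM in the 2KR pair. Junb stood at 2117 and 7756 CPM, and Dusp1, a phosphatase that ends MAP kinase signals, at 1056 and 3463 CPM.

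The list was not uniform. Fos had a log2 ratio of 1.77 whereas Jun had -0.68, from 542 to 339 CPM. Egr1 had a ratio of 1.66, but Egr2, another factor of antigen receptor signals, was lower in fat at 90.3 and 35.5 CPM. The inducible heat shock genes Hspa1a and Hspa1b had ratios of -0.70 and -0.98. In the 2KR pair the same list had 16 higher and 5 lower members, against 7.81% and 18.2% of all kept genes, and a median of 0.68. Both medians lay above that of all kept genes, which was -0.33 in the WT pair and -0.49 in the 2KR pair, and the WT median was the larger.

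The NF-kB pathway switches on transcription once its inhibitors are degraded, and 3 genes that restrain or modify it, Tnfaip3, Nfkbiz and Nfkbid, had the largest ratios of its list. Of 24 genes, all kept, 12 (50.0%) were higher and 2 (8.33%) lower, against 9.02% and 13.7% of all kept genes, with a median log2 ratio of 0.92. Tnfaip3 encodes A20, an enzyme that ends NF-kB signals. It stood at 310.1 CPM in WT spleen and 7136 CPM in WT eWAT, and at 359 and 3580 CPM in the 2KR pair. The nuclear inhibitor Nfkbiz stood at 122 and 2296 CPM, and Nfkbid, which is known to promote Foxp3 expression during Treg development, at 134 and 1175 CPM. The kinase gene Map3k8 came next, at 50.8 and 194 CPM (log2 ratio 1.93). Nfkbia, the classical inhibitor, stood at 1222 and 4167 CPM (log2 ratio 1.77). Of the subunits, Rel was higher, at 35.3 and 117 CPM, while Rela, Nfkb1 and Nfkb2 were near level with log2 ratios of 0.04, -0.04 and -0.16. The 2 lower members were Ltb, the lymphotoxin beta chain that organizes lymphoid tissue, at 1805 and 421 CPM, and Tnip1, which encodes an inhibitor that binds A20, at 190 and 83.0 CPM.

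The promoters of these genes and of the other immediate early genes were searched for the letters of 3 motifs on both strands. These were the AP-1 motif TGANTCA, the cyclic AMP response element (CRE) TGACGTCA and the NF-kB motif, which reads GGGA, any base, TT, any base and CC. The first 2 cannot match the same letters. The windows were the 250 bases before each RefSeq start (GRCm38.p6), and a gene was counted if any of its windows held a match. Among all 27025 genes of that table, 7.82% held the AP-1 motif, 1.77% the CRE and 1.13% the NF-kB motif. Among the 6090 kept genes matched, the shares were 5.16%, 3.38% and 1.66%. Of 19 matched genes of the NF-kB list, 7 held the NF-kB motif, 5 the AP-1 motif and 1 the CRE. That list was made of NF-kB subunits, inhibitors and targets, so its NF-kB share depends on how it was chosen. Of 32 matched immediate early genes, 4 held the CRE, 1 the AP-1 motif and 0 the NF-kB motif. Among the genes at 20 CPM or more in both tissues, 204 of the 283 higher genes were matched, of which 22 (10.8%) held AP-1, 8 (3.92%) the CRE and 10 (4.90%) the NF-kB motif. Of the 659 lower genes 487 were matched, with 33 (6.78%), 12 (2.46%) and 8 (1.64%). These counts describe letters in a window and do not show binding.

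Here 4 of these windows are shown, those of Areg and of 3 genes of the NF-kB list described above, because each holds a match, which is in capitals.
Areg (chr5:91139349-91139598, plus strand, CRE starting at position -61): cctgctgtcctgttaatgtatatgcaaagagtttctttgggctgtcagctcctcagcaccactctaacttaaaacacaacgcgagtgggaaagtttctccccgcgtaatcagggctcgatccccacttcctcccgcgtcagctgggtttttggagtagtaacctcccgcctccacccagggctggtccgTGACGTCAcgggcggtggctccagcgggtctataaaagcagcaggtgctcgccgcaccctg
Tnfaip3 (chr10:19015411-19015660, minus strand, AP-1 motif at -136): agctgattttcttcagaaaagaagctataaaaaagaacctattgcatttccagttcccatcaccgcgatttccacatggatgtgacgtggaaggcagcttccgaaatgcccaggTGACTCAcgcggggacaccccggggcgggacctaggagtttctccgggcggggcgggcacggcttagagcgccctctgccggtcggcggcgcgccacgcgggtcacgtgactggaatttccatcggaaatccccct
Nfkbid (chr7:30422156-30422405, plus strand, NF-kB motif at -226 and CRE at -51): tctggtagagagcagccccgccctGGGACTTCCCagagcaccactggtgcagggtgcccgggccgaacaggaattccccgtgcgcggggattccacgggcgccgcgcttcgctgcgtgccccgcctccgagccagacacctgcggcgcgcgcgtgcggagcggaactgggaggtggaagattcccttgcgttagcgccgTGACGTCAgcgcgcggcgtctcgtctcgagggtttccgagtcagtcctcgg
Nfkbia (chr12:55492648-55492897, minus strand, NF-kB motif on the opposite strand at -29): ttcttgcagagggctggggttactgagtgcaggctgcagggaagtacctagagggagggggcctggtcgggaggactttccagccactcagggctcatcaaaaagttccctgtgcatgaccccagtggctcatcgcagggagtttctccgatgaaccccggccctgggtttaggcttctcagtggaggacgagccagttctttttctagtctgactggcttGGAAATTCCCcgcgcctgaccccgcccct
Positions are counted back from the RefSeq start, with -1 the base before it. The windows of Atf3, Fosb, Fosl2 and Nr4a1 held none of the 3 motifs in these exact letters.

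The 17 T helper cytokine genes summed to 275 CPM in WT spleen and 348 CPM in WT eWAT, and 8 were kept. Of these, 5 (62.5%) were higher and 1 (12.5%) was lower, against 9.02% and 13.7% of all kept genes. Il5, a type 2 cytokine, had 3 reads in WT spleen and 28.8 CPM in WT eWAT, a log2 ratio of 6.15 (interval 5.33 to 9.18). Il5 and Il13 are also on the ILC2 and mast cell list, and the part of such cells in these values was not tested. Csf2 stood at 0.565 and 28.5 CPM and Il6 at 0.565 and 27.3 CPM. Il5, Csf2 and Il6 were kept only through the fat library, so their being higher was set by that filter. The type 2 partners of Il5 remained very low in WT eWAT, with 24 reads for Il4 and 7 for Il13. Ifng stood at 14.1 and 36.8 CPM. Lta, which encodes lymphotoxin alpha, went the opposite way, from 121 to 7.01 CPM. Since Ltb was lower as well, both lymphotoxin genes were lower in fat.

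Genes of resting and recirculating T cells were lower in fat. Of 37 found in the files, 35 were kept, 24 (68.6%) were lower and 1 was higher, with a median log2 ratio of -1.78, against 13.7% lower and a median of -0.33 over all kept genes. Tcf7 stood at 700.2 and 87.2 CPM in the WT pair and at 736 and 116 CPM in the 2KR pair. Id3, an inhibitor of E proteins, stood at 271 and 25.7 CPM in the WT pair and at 283 and 36.4 CPM in the 2KR pair. Dtx1, a ubiquitin ligase of the Notch pathway, stood at 217 and 3.32 CPM in the WT pair and at 220.4 and 4.27 CPM in the 2KR pair. For these 3 genes both eWAT libraries lay below both spleen libraries, and the 2 eWAT values were similar. Lef1, Foxo1, Bach2 and Satb1 had log2 ratios of -1.99, -1.78, -2.09 and -2.52.

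Ccr7 and S1pr1, receptors of lymph node entry and exit, differed by smaller amounts than Tcf7, Id3 and Dtx1. Ccr7 stood at 698 and 316 CPM in the WT pair, but at 723 and 680.4 CPM in the 2KR pair, so it was lower in WT eWAT and near level in 2KR eWAT. S1pr1, the egress receptor, stood at 413 and 192 CPM in the WT pair and at 489 and 205 CPM in the 2KR pair. Klf2, the factor that drives S1pr1, had a log2 ratio of -0.55. Cxcr5, the receptor of B cell follicles, stood at 238 and 17.4 CPM. Slc40a1, the iron exporter ferroportin, stood at 43.6 and 1.02 CPM. Ccr9, a gut homing receptor, was the 1 higher member, at 11.9 and 150.0 CPM, and Itgb7, a gut homing integrin chain, was near level at 1599 and 2123 CPM.

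Genes of the T cell receptor complex and its proximal signals mostly lay within 2-fold, with 21 of 26 between, 0 higher and 5 (19.2%) lower, against 13.7% lower over all kept genes. Their median log2 ratio was -0.67, against -0.33 over all kept genes. Cd3e stood at 1385 and 672 CPM, Cd3d at 920.3 and 361 CPM, and Zap70, the kinase recruited by the receptor, at 325 and 119 CPM. Cd4 stood at 637 and 412 CPM, and Ptpn22 was near level with a log2 ratio of 0.12. Treg core genes that were lower included Gpr83 (336 and 12.0 CPM), Folr4, the folate receptor 4 gene (1217 and 109 CPM), and Ikzf4 (log2 ratio -1.59). Lrrc32, which encodes GARP and holds latent TGF-beta on the Treg surface, stood at 263 CPM in WT spleen and 76.1 CPM in WT eWAT, but at 257 and 286 CPM in the 2KR pair. The higher core genes were S100a4, S100a6 and Ctla4, with ratios of 4.02, 3.42 and 1.64. Foxp3 thus lay near level between the tissues in the WT pair while several genes commonly listed beside it did not.

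Of 38 interferon response genes 31 were kept, of which 14 (45.2%) were lower, 2 higher and 15 between, against 13.7% lower over all kept genes. Their median log2 ratio was -0.93, against -0.33 over all kept genes. Usp18, a feedback inhibitor of the response, stood at 118 and 17.2 CPM in the WT pair and at 114 and 23.6 CPM in the 2KR pair. The interferon gamma receptor gene Ifngr1 went the opposite way, as given above. Mx1 and Ly6a were the 2 higher members, at 2.55 and 1.59.

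Of 30 cell cycle genes 14 were kept, 1 (7.14%) was higher and 2 (14.3%) were lower. These shares were near the 9.02% and 13.7% of all kept genes. The median log2 ratio of the list was -0.59, against -0.33 over all kept genes. Mki67, a marker of dividing cells, stood at 33.2 and 39.8 CPM. Mcm2 and Mcm5, parts of the DNA replication helicase, stood at 175 and 71.4 CPM and at 158 and 69.1 CPM. Cdkn1a, which encodes the cell cycle inhibitor p21, stood at 7.10 CPM in WT spleen and 469.7 CPM in WT eWAT, and at 6.48 and 214 CPM in the 2KR pair. It was the only member of its list that was higher.

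Ranked over all kept genes on no list of other cells, with at least 100 reads in the higher library and 1 CPM in the lower one, the 15 largest ratios ran from 5.53 to 7.54. Ccr1, Areg, Fosb, Il1rl1, Fosl2, Ccr2, Cdkn1a and Ier3, already on the lists, took 8 of these places. The others were Anxa1, Ltb4r1, Myadm, Lmna, Pcsk1, Metrnl and Gpx3. Anxa1, a phospholipid-binding protein that dampens inflammation, had 124 reads in WT spleen and 1531 CPM in WT eWAT, and 14.4 and 387 CPM in the 2KR pair. Ltb4r1, the receptor for leukotriene B4, stood at 2.90 and 384 CPM in the WT pair and at 4.19 and 96.1 CPM in the 2KR pair. Lmna, the nuclear lamin A and C gene, stood at 13.8 and 896 CPM, and the secreted protein gene Metrnl at 5.65 and 293 CPM. Pcsk1, a prohormone convertase, stood at 1.94 and 132 CPM in the WT pair and at 0.589 and 16.6 CPM in the 2KR pair. These genes were low in both spleen libraries, and the WT eWAT value was the highest for each.

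The 15 smallest ratios by the same rule ran from -5.96 to -3.74. After Dtx1 and Slc40a1 came Ecel1 (36.1 and 1.11 CPM), Gpr83, Capn3, which encodes a calpain protease (113 and 4.25 CPM), and Gata1, the erythroid transcription factor (64.3 and 2.58 CPM). Abi3, Lta, Sostdc1, Nsg2, Treml2, Chchd10, Gsta4, Cxcr5 and Il1r2 completed them. Gata1 stood at 54.9 and 4.79 CPM in the 2KR pair. In the 2KR pair the same 15 genes had ratios between -5.64 and -2.17, so each was lower in that pair too.

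The most abundant transcripts of WT eWAT by read count were partly those of any T cell. Among the 15 with the highest CPM were the class I genes H2-D1, H2-K1 and B2m, and Actb, Tmsb4x and Ly6e, with log2 ratios between -0.43 and 0.36. Rn45s, a ribosomal RNA precursor, held 3127 CPM there and 6077 CPM in WT spleen. The others were Junb, Tnfaip3, Nfkbia, Nr4a1, Dusp1, Ifngr1, Cd74 and Serinc3, with ratios between 1.47 and 4.52. On the FPKM scale, which allows levels of different genes to be compared, Areg reached 1978 and Klrg1 1567 in WT eWAT, against 365 for Foxp3 and 71.1 for Pparg.

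The tissue difference of the 2KR pair followed that of the WT pair over genes. Pearson's r between the 2 sets of log2 ratios was 0.915 over the 8313 kept genes, which are not independent of each other. Of the 750 genes higher in the WT pair, 736 had a ratio above 0 in the 2KR pair and 576 were 2-fold higher there. Those 576 are 76.8% of the 750 and 88.8% of the 649 kept genes that were 2-fold higher in the 2KR pair (7.81% of kept genes). Of the 1138 lower genes, 1134 were below 0 in the 2KR pair and 838 were 2-fold lower. Those 838 are 73.6% of the 1138 and 55.2% of the 1517 genes that were 2-fold lower in the 2KR pair (18.2% of kept genes). The median ratio of the 750 genes was 2.22 in the WT pair and 1.90 in the 2KR pair. The 750 genes were chosen on the WT ratio, so a smaller ratio in another pair is partly set by that choice.

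**Figure D4:**
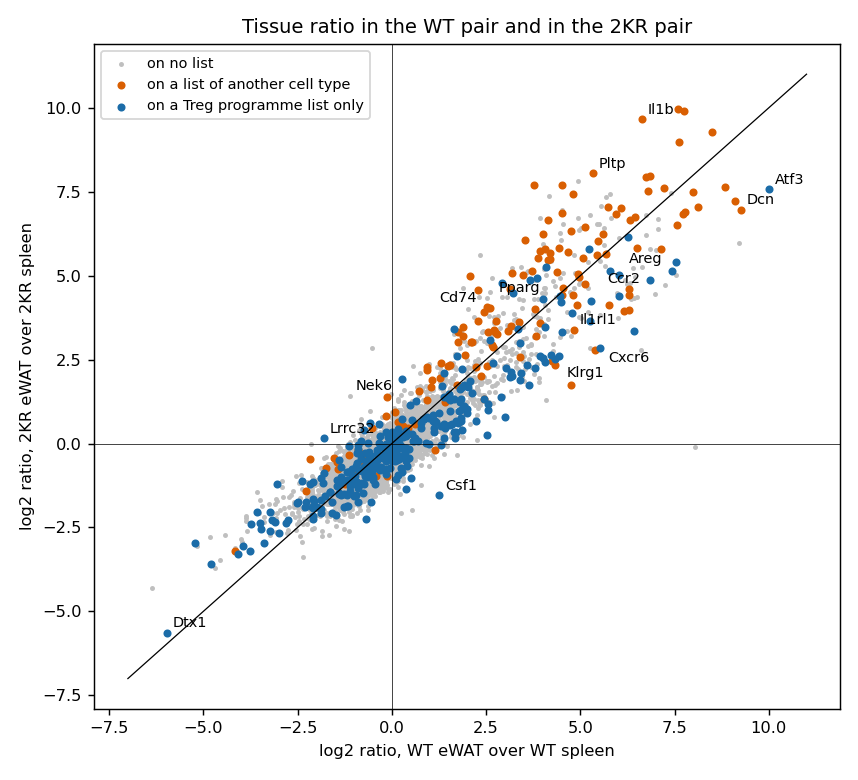
Log2 ratio of eWAT over spleen in the WT pair (x axis) and in the 2KR pair (y axis) for the 8313 kept genes (Pearson's r = 0.915), with the line of equality. The markers Il1rl1, Areg, Klrg1 and Ccr2 lie below the line, Pparg lies near it (4.46 and 4.40), and markers of other cells lie on both sides, for example Cd74 and Il1b above it and Dcn below it.

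The counts were checked against the authors' FPKM values, which come from Cufflinks per the deposited readme. All 8313 kept genes were matched, and the 2 log2 ratios, with 1 added to each FPKM value, correlated across genes with Pearson's r of 0.979. Of the 750 higher genes 719 were also 2-fold higher by FPKM, and of the 1138 lower genes 878 were 2-fold lower. Of these, 0 higher genes and 1 lower gene had the opposite sign. The 2 ratios differed by more than 1 for 131 genes, of which 123 were under 20 CPM in spleen. The 8 genes that differed most were Kcna4, Thbd, Timp3, Wnt11, Cav1, Eng, Sparc and Dusp8, each with 0 to 2 reads in WT spleen. At such low levels the prior count of 2 reads and the added 1 FPKM set the size of the ratio. For the 5 fat Treg markers the FPKM ratios were 4.16 for Pparg, 6.20 for Il1rl1, 7.64 for Areg, 4.39 for Klrg1 and 5.90 for Ccr2, close to those from counts.

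Some genes had fewer counted reads than their FPKM values require. Each transcript's FPKM times its length gives the level that the estimate implies in RPM, which is CPM without TMM scaling. At 20 implied RPM or more there were 7652 genes in WT eWAT, of which 92.6% lay within 1.5-fold of the counted value after centring, 211 were counted more than 4-fold below it and 0 more than 4-fold above. In WT spleen 234 of 7879 were more than 4-fold below. Gapdh, a glycolytic enzyme, had 15.7 counted and 526 implied RPM in WT eWAT, and Ppia, a protein-folding enzyme, had 4.65 and 1261. Actg1, a cytoskeletal actin, had 374 and 6153. In all, 344 genes reached 20 implied RPM without being kept on counts, and 54 of them had 0 counted reads in both WT libraries. By the implied values 37 of the 344 would be higher and 89 lower. Most Treg genes described above were counted near the implied level: Il1rl1, for example, had 1383 counted and 1384 implied RPM in WT eWAT. Exceptions among those named included Hspa1a, whose near-identical copy is Hspa1b, with 18.4 counted and 50.1 implied RPM in WT eWAT, and Dgat1, with 339 counted and 209 implied.

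**Figure D5:**
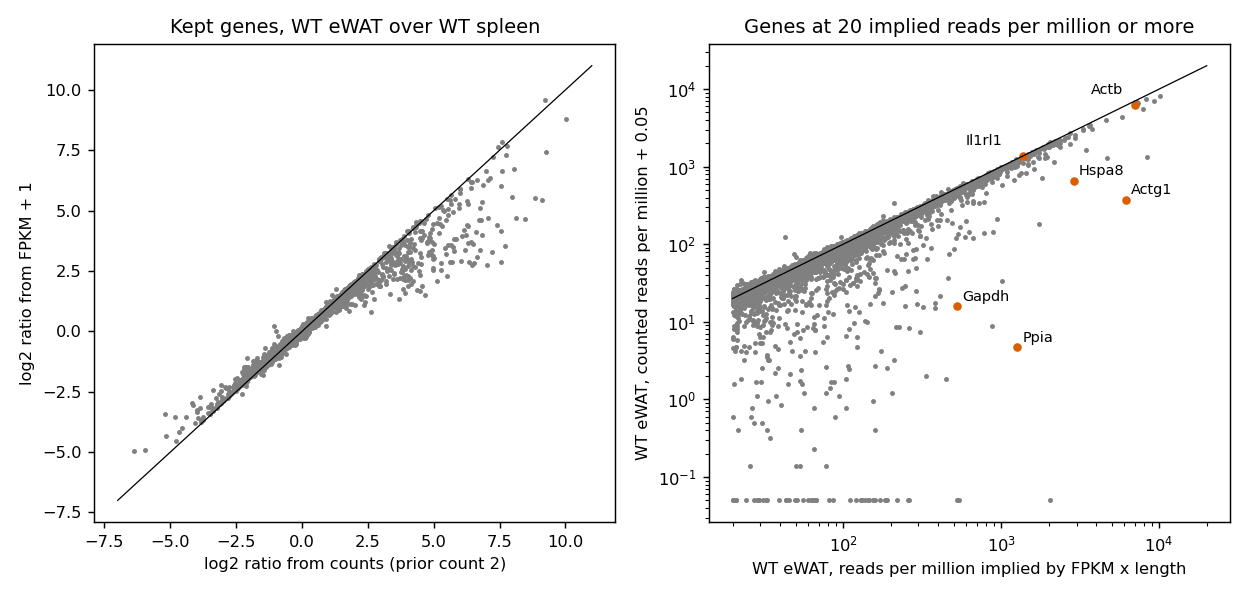
Left, the WT log2 ratio from counts (x axis) and from FPKM plus 1 (y axis) for the 8313 kept genes, with the line of equality (Pearson's r = 0.979). Right, for the 7652 genes at 20 implied RPM or more in WT eWAT, implied (x axis) against counted RPM plus 0.05 (y axis) on log axes: most genes lie on the line, and Gapdh, Ppia, Actg1 and Hspa8 lie below it.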

How the data were processed

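RNA sequencing of Treg cells gave 4 libraries, 1 for each combination of tissue (eWAT, spleen) and genotype (WT, 2KR), grouped by their titles. The deposited counts are whole reads per gene symbol. Per the deposited readme, libraries were poly-A selected, reads were 100 bp long, bcl2fastq 1.8.4 made the read files, and Tophat 2.1.0 placed reads on mm9 with at most 4 mismatches and 10 hits. The submitters' processing notes also list mm8. How reads were counted (tool, strand, multiple hits) is not given in the sources used here. The deposited FPKM values, per gene and per transcript, come from Cufflinks 2.0.2, run by the authors per the deposited readme.

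CPM used trimmed mean of M-values (TMM) factors of 0.936 and 0.969 for WT spleen and WT eWAT, and 0.955 and 1.16 for the 2KR pair (edgeR 4.0.16, R 4.3.3, over 16488 genes). Ribosomal Rn45s took 0.569% of the WT spleen reads and 0.303% of the WT eWAT reads and stayed in. Log2 ratios had a prior count of 2 (FPKM: 1 added). Intervals are exact conditional binomial intervals of 95%, and 0 reads were replaced by a floor of 3 reads in a lower bound (0.242 CPM in WT spleen, 0.277 CPM in WT eWAT). Both cover counting error only. The steps were tested on simulated data. Ratios, intervals and plots were made in Python 3.11.15 (pandas 2.3.3, numpy 2.4.6, matplotlib 3.10.9, scipy 1.17.1). Alternatives used DESeq2 1.42.0 size factors, other minimum levels, another prior count, FPKM and the 2KR pair.

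The kept genes, the 14 Treg lists and the 11 lists of other cells were chosen with earlier results of these data known. Summed levels of other-cell lists leave out genes also on a Treg list. Genes were named by rule: the 5 markers and Foxp3, the 4 highest and 2 lowest kept members of each Treg list, the 15 highest and 15 lowest ratios, the 15 highest CPM in WT eWAT, the 4 highest members of each other-cell list, and the 8 genes with the largest gap between count and FPKM ratios. Other members of the lists, and Gapdh, Ppia and Actg1, were named after their values were seen. Promoter symbols matched for 6090 of 8313 kept genes. No protein sequences were used here.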

Additional observations from a re-analysis of the deposited data

Results flagged for a closer look

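Csf1 and Nek6 were at least 2-fold apart between the tissues in opposite directions in the WT pair and in the 2KR pair. Csf1, which encodes the growth factor of macrophages, stood at 101 CPM in WT spleen and 242 CPM in WT eWAT, a log2 ratio of 1.26, and at 118 and 40.5 CPM in the 2KR pair, a log2 ratio of -1.54. The spleen libraries were close for this gene, and the eWAT libraries differed. Nek6, which encodes a mitotic kinase, stood at 22.2 and 10.2 CPM in the WT pair, a log2 ratio of -1.11, and at 6.55 and 17.8 CPM in the 2KR pair, a log2 ratio of 1.42. Its spleen values also differed between the genotypes. With 1 library in each group these differences were not tested. They are 2 of the 750 higher and 1138 lower genes of the WT pair.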

How the results depend on the processing

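The counts of 750 higher and 1138 lower genes depended mainly on the minimum level. With a minimum of 5 CPM 1869 genes were higher, and with 100 CPM 282 were higher and 359 lower. With 20 CPM required in both libraries, an alternative chosen after seeing the data, 283 were higher and 659 lower. The higher share of called genes was 39.7% in the main setting, 56.1% at 5 CPM and 30.0% with 20 CPM in both. Other settings stayed within 1.5-fold of both counts: total count scaling gave 777 and 973, DESeq2 size factors 700 and 1424, TMM of the WT pair alone 720 and 1210, FPKM with 1 added 735 and 887, the 2KR pair 681 and 1503, the removal of genes on other-cell lists 640 and 1128, and reads implied by FPKM 811 and 1068. No scaling moved the median of all kept genes by more than 0.09. Of 22 list medians 9 were at 2-fold or more, and none of these changed sign (75 comparisons). Of 161 named genes 127 had ratios of 2-fold or more, and none of these changed sign (762 comparisons). In 12 of the 762 comparisons the ratio fell under 2-fold, among them Batf, Dusp2 and Csf3r. Sizes were less stable: 79 of the 161 named genes moved outside their counting interval with FPKM plus 1, and 44 with DESeq2 size factors. Medians of lists with under 6 kept genes were not compared. No paired analysis was possible because each group has 1 library, and for the same reason no replicate could be left out. Depth limits genes with few spleen reads: for Dcn, 5 reads gave a log2 ratio of 9.26 with an interval of 8.53 to 11.38.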

Other observations

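Among genes left out of the ranking above because they were under 1 CPM in WT spleen, Cyp4f18, which encodes a cytochrome P450 that hydroxylates leukotriene B4, was singled out after its values were seen. It had 9 reads in WT spleen (0.726 CPM) and 236 CPM in WT eWAT, a log2 ratio of 8.05 (interval 7.42 to 9.48). In the 2KR pair it stood at 62.1 CPM in spleen and 57.5 CPM in eWAT, a ratio of -0.11. The low value was thus that of WT spleen alone, and the WT tissue ratio of this gene was not seen in the 2KR pair. By FPKM WT spleen was again the lowest and WT eWAT the highest, with 0.439 and 151 in the WT pair and 37.1 and 42.9 in the 2KR pair. Within the 2KR pair eWAT was the higher library by FPKM and the lower by CPM. The matrix metalloprotease gene Mmp25, also chosen after its values were seen, stood at 0.484 and 63.9 CPM in the WT pair and at 1.44 and 10.8 CPM in the 2KR pair.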
